A study of Caenorhabditis elegans with 2 samples.

Results

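Genes for the protein components of the cytosolic ribosome were described in a chromatin immunoprecipitation sequencing (ChIP-seq) experiment on the histone methyltransferase MES-4 in whole Caenorhabditis elegans. The members are the protein-coding genes of the Ensembl annotation named rpl- or rps- and a digit, with rla-0, rla-1 and rla-2, which gave 81 genes of 19973 on the nuclear chromosomes. Classed by name alone, 47 of these count as large subunit genes, 31 as small subunit genes and 3 as genes of the ribosomal stalk. A gene was called marked when the summit of a peak, its point of highest signal, lay in the gene body or up to 500 bp upstream of the annotated 5' end. The rule uses gene names and no measured value, and it was set with earlier results of these data known.

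The experiment had 1 group, hermaphrodite young adults of strain RW10325 collected 63 h after synchronization by starvation at the first larval stage, with 2 biological replicates. All animals carried a transgene for MES-4 with a C-terminal tag of green fluorescent protein (GFP) and FLAG, and an antibody against GFP was used. The promoter of the transgene is not given in the labels, and an immunoprecipitation from untagged animals was not analysed here. Soma and germline were pooled in whole animals, so the cells in which a site was recovered cannot be told apart. The values are 4 lists of peaks: a reproducible list of 460 peaks, a relaxed list of 12028 from the pooled replicates, and relaxed lists of 15392 in replicate 1 and 14970 in replicate 2. Of these, 440, 12008, 15372 and 14947 were nuclear. Relaxed lists hold background as well as peaks, by their deposited description.

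MES-4 methylates lysine 36 of histone H3 and is known for keeping that mark on genes that were transcribed in the parental germline. Ribosomal protein genes are short, are transcribed in almost every cell, and are among the most highly expressed genes of the worm. Many of them, in worms as in other animals, carry small nucleolar RNA (snoRNA) genes in their introns, and snoRNAs guide the modification of ribosomal RNA.

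Summits lay on both flanks of the ribosomal protein genes more often than on those of protein-coding genes at large. Gene bodies depend on length, and the members are short, with a median of 754 bp against 2027 bp, so body counts are also given for the 3646 protein-coding genes of 454 to 1163 bp, the range between the 10th and the 90th percentile of the members. In the reproducible list 6 of the 81 genes had a summit up to 500 bp upstream (7.41%, against 0.456% of all protein-coding genes) and 2 had one in the body (2.47%, against 1.01% of all genes and 0.384% of the genes in that length range). A further window, up to 500 bp past the annotated 3' end, was examined after the values were seen and held a reproducible summit at 11 of the 81 (13.6%, against 0.786%). With both flanks and the body counted, 17 of the 81 had a reproducible summit (21.0%, against 2.18%), 9 of them past the 3' end alone. The upstream and downstream windows have the same length for every gene, while gene length enters the counts with the body. No test was made, and a share given after "against" is that of all protein-coding genes in the same list unless another set is named.

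**Figure D1:**
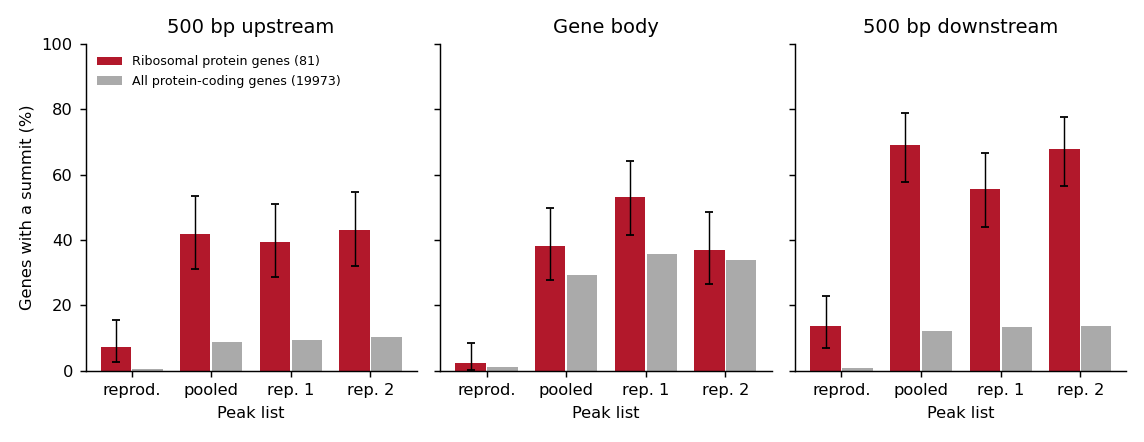
Percent of the 81 ribosomal protein genes (red) and of all 19973 protein-coding genes (grey) with a summit in each window, by peak list. Error bars are exact 95% Clopper-Pearson intervals for the 81 genes and cover counting error only; the red bars stand far above the grey ones on both flanks (42.0% and 69.1%, against 8.67% and 12.3%, in the pooled list) and nearer to them in gene bodies (38.3%, against 29.4%), where all genes are longer than the members.

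Sites with a reproducible summit upstream of 4 large subunit genes are shown here as DNA. The upstream counts rest on the positions of summits, and no letter of the sequence enters them. Each window is 300 bases centred on the reproducible summit, read 5' to 3' on the strand of the gene from the RefSeq sequence of WBcel235, which is ce11. Capitals mark the octamer GGCCTAAA, which was picked after sequences of this kind were seen. None of the windows holds an annotated exon.
rpl-20 (chrIV:4749917-4750216, minus strand): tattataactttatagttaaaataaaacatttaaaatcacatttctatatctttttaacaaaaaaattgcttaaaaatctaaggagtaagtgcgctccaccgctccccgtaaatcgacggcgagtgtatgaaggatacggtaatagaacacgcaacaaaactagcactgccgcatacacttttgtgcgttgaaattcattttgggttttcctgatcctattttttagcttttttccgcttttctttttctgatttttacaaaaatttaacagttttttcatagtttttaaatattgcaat
rpl-35 (chrIII:7854538-7854837, plus strand): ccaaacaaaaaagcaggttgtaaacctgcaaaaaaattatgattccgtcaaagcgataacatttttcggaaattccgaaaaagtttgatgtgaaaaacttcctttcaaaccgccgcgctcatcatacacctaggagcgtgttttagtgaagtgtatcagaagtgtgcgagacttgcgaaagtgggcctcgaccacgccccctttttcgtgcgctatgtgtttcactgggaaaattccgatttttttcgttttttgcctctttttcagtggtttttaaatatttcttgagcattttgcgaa
rpl-15 (chrIV:654778-655077, minus strand): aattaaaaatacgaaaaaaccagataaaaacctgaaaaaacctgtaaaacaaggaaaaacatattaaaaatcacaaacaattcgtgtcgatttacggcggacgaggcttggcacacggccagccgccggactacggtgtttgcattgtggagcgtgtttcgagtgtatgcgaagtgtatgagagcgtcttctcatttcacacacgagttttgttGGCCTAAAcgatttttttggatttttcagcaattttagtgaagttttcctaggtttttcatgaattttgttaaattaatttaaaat
rpl-21 (chrIII:8130410-8130709, minus strand): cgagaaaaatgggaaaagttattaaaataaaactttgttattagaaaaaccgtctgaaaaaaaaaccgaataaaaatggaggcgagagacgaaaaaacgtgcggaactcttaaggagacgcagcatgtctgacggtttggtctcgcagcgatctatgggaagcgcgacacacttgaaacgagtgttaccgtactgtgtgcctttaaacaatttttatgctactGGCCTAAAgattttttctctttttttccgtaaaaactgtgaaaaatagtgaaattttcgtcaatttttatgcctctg

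Over their 300 bases these 4 windows held 30.7% to 40.3% G and C, each below the median of 42.0% around the summits of all 440 reproducible peaks. In the middle 100 bases they held between 46% and 55.0%, and the window at the summit upstream of rps-19, which is not printed, held 40.0% there. The median of the 500 bases upstream was 33.8% both over the 81 genes and over all protein-coding genes. The octamer began 64 bp downstream of the summit at rpl-15 and 73 bp at rpl-21, on the gene strand each time. It therefore lay between the summit and the gene at a similar spacing in both. Of the 6 members with a reproducible summit upstream, 4 held the octamer within the 500 bases upstream. The spacing thus describes 2 of these 4 alone. Within the 500 bases upstream the octamer occurred, on either strand, at 22 of the 81 genes (27.2%), against 330 of 19973 (1.65%). Among the 34 members with a summit upstream in the pooled list 12 had it (35.3%), and among the 47 without one 10 had it (21.3%). Members with and without such a summit thus both held it more often than all genes, and a match in this window is a description, not a binding site. Past the 3' end it occurred at 1 of the 81 genes (1.23%), against 1.38% of all genes.

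Of 5 other sequences searched on both strands in the same 500 bases, TTTCAG, the letters of the worm splice acceptor, was at 86.4% of members and 65.4% of all genes. Runs of TTTTTTTT were at 34.6% and 49.4%. The others were near the level of all genes: TATAAA at 54.3% and 54.0%, GAGAGA at 31 of 81 and 5987 of 19973, and GGTTCGA, part of the internal promoter of tRNA genes, at 1.23% and 2.63%. In the shorter window of 250 bases before to 50 after the 5' end, TATAAA was at 27.2% of members and 37.9% of all genes. GAGAGA was there at 21.0% and 21.8%, and GGCCTAAA at 14.8% and 0.891%.

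By the marking rule as given, with gene body and upstream window together, 8 of the 81 genes (9.88%, interval 4.36 to 18.5) were marked in the reproducible list, against 1.45% of all protein-coding genes. Large subunit genes accounted for 6 of the 47, small subunit genes for 1 of the 31 and stalk genes for 1 of the 3. The signal of a peak is the authors' own value, and the rank is by that signal among the nuclear peaks of one list, with rank 1 the highest.

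The gene with the highest signal was rpl-3, whose product lines the peptidyl transferase centre of the large subunit. Its summit lay 287 bp upstream (gene chrIII:3867854-3869587), with a signal of 192.7 and rank 15 of 440. In replicate 1 the leading peak had a signal of 82.1 and rank 38, and in replicate 2 a signal of 111.5 and rank 9. Both replicates placed their leading summit within 19 bp of the reproducible one. Next came rpl-20, for another large subunit protein, with its summit 288 bp upstream (peak chrIV:4749846-4750285, gene chrIV:4749123-4749778), a signal of 162.0 and rank 37. Its peak had a signal of 74.9 and rank 61 in replicate 1, and a signal of 86.6 and rank 30 in replicate 2. For these 2 genes the summits of both replicates thus gave nearly the same place and a high rank.

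The gene rpl-35, whose product sits near the exit of the peptide tunnel, had its summit 447 bp upstream (peak chrIII:7854467-7854906, gene chrIII:7855134-7855646), close to the limit of the window. Its signal was 125.9 and its rank 95, with ranks of 474 in replicate 1 and 48 in replicate 2. The large subunit gene rpl-15, with its summit 351 bp upstream (peak chrIV:654707-655146, gene chrIV:653480-654576), had a signal of 123.7 and rank 103, and ranks of 47 in replicate 1 and 255 in replicate 2. The replicates thus differed more here, in opposite directions for these 2 genes. Of the small subunit genes only rps-19 was marked, 234 bp upstream (peak chrI:9625810-9626249, gene chrI:9625049-9625796), with a signal of 95.4 and rank 249, and ranks of 286 in replicate 1 and 434 in replicate 2. The gene rpl-21 had its summit 332 bp upstream (peak chrIII:8130339-8130778, gene chrIII:8129551-8130227), at a signal of 77.8 and rank 432, and ranks of 399 in replicate 1 and 1172 in replicate 2. It was the weakest of the 8 and stood at the lower end of the list.

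In the other 2 genes the summit lay in the body, in a coding exon of the downstream part. The gene rla-1 encodes the acidic stalk protein P1, part of the stalk that recruits translation factors, and its summit lay 425 bp into a gene of 490 bp (peak chrI:2068930-2069369, signal 102.5, rank 201). The gene rpl-32 had its summit 462 bp into a gene of 589 bp (peak chrII:9056403-9056842, signal 84.6, rank 346). Their leading marking summits ranked 321 and 418 in replicate 1, and 163 and 632 in replicate 2. At rla-1 in replicate 2 the strongest overlapping peak, of rank 118, had its summit 78 bp past the 3' end. The same held at rpl-32 in replicate 1, with rank 211 and 69 bp. The replicates thus did not both place their strongest summit in the body at these 2 genes. Both reproducible summits in a body thus lay nearer to the 3' end than to the 5' end.

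**Figure D2:**
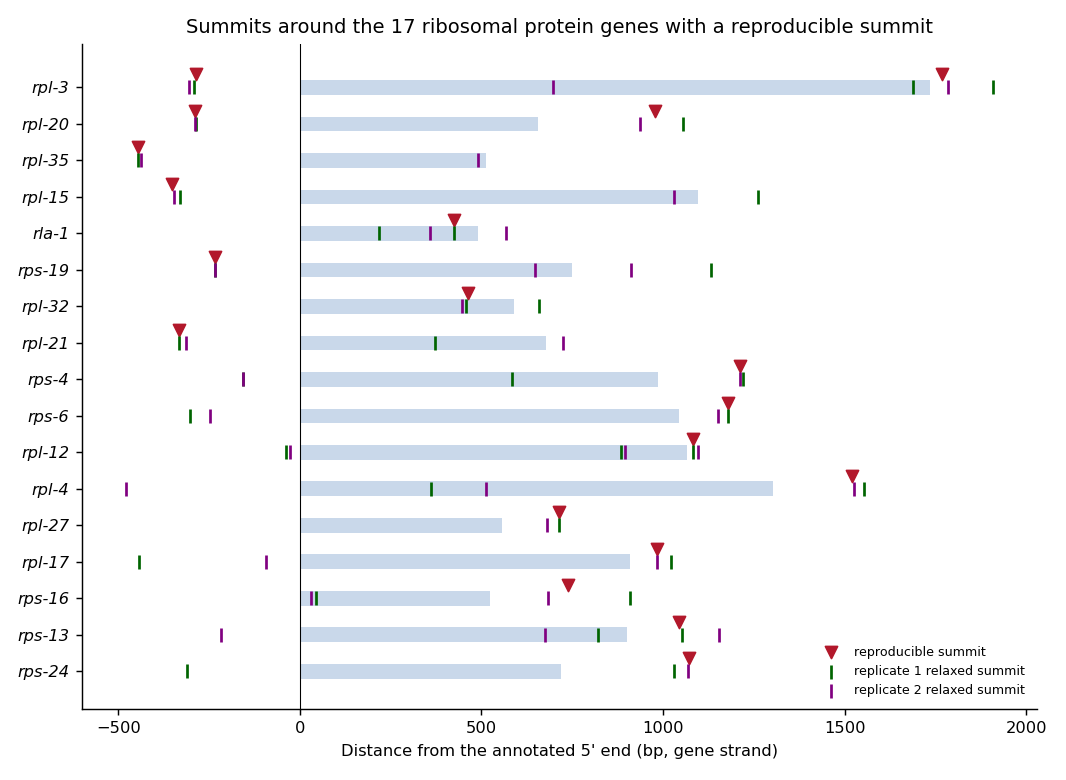
The 17 ribosomal protein genes with a reproducible summit in the body or within 500 bp of either end, drawn to scale as blue bars by distance in bp from the annotated 5' end on the gene strand. Triangles are reproducible summits, ticks are summits of the relaxed lists of replicate 1 (green) and replicate 2 (purple), past the 3' end the leading one of each list alone; the triangles lie 234 to 447 bp before 6 genes, in the body of rla-1 and rpl-32, and 19 to 352 bp past the end of 11, with rpl-3 and rpl-20 on both sides.

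The 11 genes with a reproducible summit past the 3' end, all named here after their values were seen, had that summit 19 to 352 bp beyond the annotated end, with a median of 159 bp. By signal they were rps-4 (125.7, rank 96), rps-6 (112.5, rank 146), rpl-3 (111.5, rank 152), rpl-12 (101.2, rank 211), rpl-4 (86.3, rank 331), rpl-27 (83.2, rank 362), rpl-17 (83.0, rank 365), rps-16 (82.7, rank 368), rps-13 (82.3, rank 375), rps-24 (80.7, rank 395) and rpl-20 (78.9, rank 417). The small subunit thus gave 5 of the 11. None of these 11 summits lay within 220 bp of a tRNA, snRNA or snoRNA gene. With peaks near such genes left out, all 11 members remained, and the share of all protein-coding genes went from 0.786% to 0.416%.

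At rps-4, a small subunit gene, the summit lay 227 bp past the end (peak chrIV:7083249-7083688), and the strongest overlapping peak had a signal of 66.7 and rank 92 in replicate 1, and of 55.6 and rank 164 in replicate 2. At rps-6, which encodes the small subunit protein phosphorylated by S6 kinase, it lay 136 bp past the end (peak chrI:13953119-13953558), with overlapping peaks of rank 137 and 209 in replicates 1 and 2. These 2 peaks were similar in the replicates. At rpl-27 the ranks were 248 in replicate 1 and 1003 in replicate 2, and at rpl-4 they were 923 and 198, so those peaks were less alike. The genes rpl-3 and rpl-20 had reproducible summits on both flanks, 34 and 322 bp past the end in addition to those upstream, as did 4 protein-coding genes in all (0.02%).

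The compact genome places other genes in these flanks. Of the 11 summits past the 3' end, 6 lay inside another protein-coding gene: in a coding exon of Y43B11AR.3, lmd-2 and T01C3.11, in an intron of T07A9.14 and cyc-2.1, and in the 3' UTR of tir-1. Another 3 lay up to 500 bp upstream of another gene, with tag-115 154 bp, the nearer of egl-30 and C53H9.4 64 bp and Y48G8AL.7 8 bp away. The remaining 2, at rps-6 and rps-13, lay in no other protein-coding gene and not upstream of one. That at rps-13 also lay within 500 bp past the 3' end of thoc-2, on the opposite strand. The base 250 bp past the 3' end lay in another protein-coding gene for 57 of the 81 members (70.4%), against 40.1% of all protein-coding genes, so the members more often have another gene close downstream. The base 250 bp upstream lay in another gene for 8.64% of members and 21.0% of all genes. Among genes with such a neighbour 10 of 57 members (17.5%) had a reproducible summit there, against 0.761% of 8015 genes. Among genes without one it was 1 of 24 members (4.17%), against 0.803% of 11958 genes. The part of the neighbours in these counts was not tested further.

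One of the windows past a 3' end, at rpl-20, held no annotated exon and is given to set it against the window upstream of the same gene.
rpl-20, past the 3' end (chrIV:4748652-4748951, minus strand): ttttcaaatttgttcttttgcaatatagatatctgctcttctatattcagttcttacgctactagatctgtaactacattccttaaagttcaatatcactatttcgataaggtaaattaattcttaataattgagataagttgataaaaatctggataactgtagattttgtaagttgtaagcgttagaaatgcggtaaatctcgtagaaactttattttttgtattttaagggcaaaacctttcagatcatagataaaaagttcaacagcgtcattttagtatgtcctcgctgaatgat

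It held 26.0% G and C in its middle 100 bases, where the window upstream of rpl-20 held 46%. Of the octamer and the 5 other searched sequences it held TTTCAG alone, on the gene strand.

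In the relaxed lists the flanks also stood above all genes, at higher shares. In the pooled list 34 of 81 genes had a summit upstream (42.0%, against 8.67% of all protein-coding genes), 31 in the body (38.3%, against 29.4%) and 56 past the 3' end (69.1%, interval 57.9 to 78.9, against 12.3%). In replicate 1 there were 32 upstream (39.5%, against 9.49%), 43 in the body (53.1%, against 35.6%) and 45 past the end (55.6%, against 13.5%). In replicate 2 there were 35 upstream (43.2%, against 10.2%), 30 in the body (37.0%, against 34.0%) and 55 past the end (67.9%, against 13.8%). The flanks thus stood apart from all genes in each replicate, and for gene bodies the distance was larger in replicate 1 than in replicate 2. Of the genes in the length range of the members 16.6% had a body summit in the pooled list, 728 of 3646 in replicate 1 and 17.9% in replicate 2, so the bodies of members also stood above those of genes of like length. Both replicates placed a summit upstream at 21 members (25.9%, against 3.71%) and past the 3' end at 38 (46.9%, against 5.89%). A summit on both flanks of one gene was found at 25 members in the pooled list (30.9%, against 2.25%).

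Since the relaxed lists hold background, with deposited q values up to 0.96, their strongest part was read alone. Among the first 1000 nuclear regions of the pooled list 11 members had a summit upstream (13.6%, against 1.17%), 2 in the body (2.47%, against 2.52%) and 28 past the 3' end (34.6%, against 1.91%). Of the genes in the length range of the members 1.43% had a body summit there, so the count of 2 in the body was close to both shares, while both flanks stood well above those of all genes. Summits past the 3' end had a median rank of 1020 at members and 4289 at all genes in the pooled list, and those upstream 2492 and 4965.

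**Figure D3:**
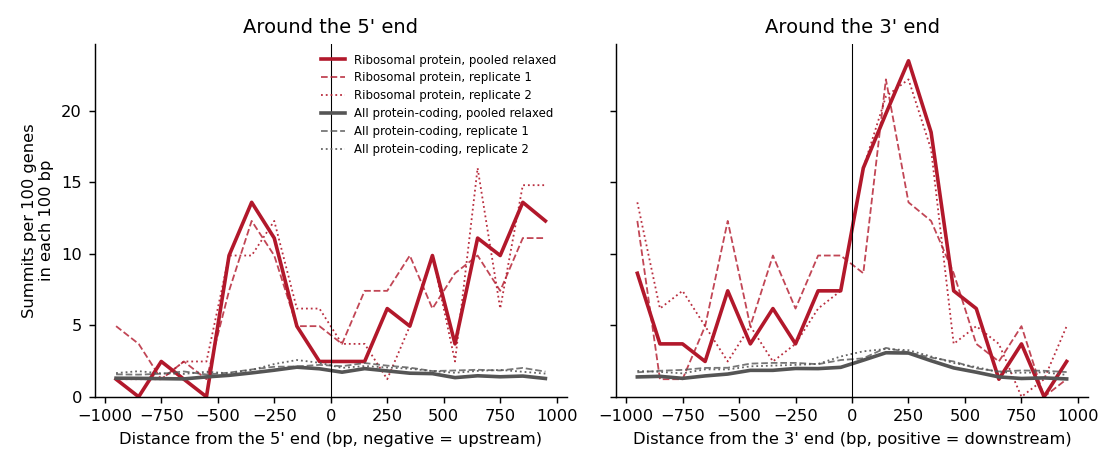
Summits per 100 genes in bins of 100 bp, by distance from the annotated 5' end (left, negative is upstream) and the 3' end (right, positive is downstream), for ribosomal protein genes (red) and all protein-coding genes (grey). Thick lines are the pooled list and thin lines the replicates; members reach 13.6 summits per 100 genes at 300 to 400 bp upstream and 23.5 at 200 to 300 bp past the end, and all genes stay between 1.25 and 3.42.

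Upstream summits of members were most frequent 200 to 400 bp from the 5' end in the pooled list. There the bin of 100 bp next to the 5' end held 2.47 summits per 100 members, the bins at 200 to 300 and 300 to 400 bp upstream 11.1 and 13.6, and the bin at 500 to 600 bp none. The bin next to the 5' end held 4.94 in replicate 1 and 6.17 in replicate 2, against 2.23 and 2.38 summits per 100 of all genes. In the pooled list all genes had 1.96 there. The median distance of leading summits upstream was 305 bp at members and 231 bp at all marked genes, and 60.0% of those of members lay 200 to 400 bp upstream, against 40.1%. In the replicates the medians were 306 and 273 bp at members, and 235 and 216 bp at all genes. Past the 3' end the bins from 0 to 400 bp held between 16.0 and 23.5 summits per 100 members in the pooled list and the bin at 600 to 700 bp held 1.23. The 2 bins before the 3' end held 7.41 each, against 1.97 and 2.06 of all genes. The first bin past the end held 8.64 in replicate 1, below the 9.88 of the bin before it, and the next held 22.2. In replicate 2 the first bin held 16.0 and the bin before it 7.41. The place where summits became more frequent at the 3' end thus differed between the replicates. The median distance past the end, 224 bp at members and 232 bp at all genes, was much the same.

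By the marking rule as given, 54 of the 81 genes were marked in the pooled list (66.7%, interval 55.3 to 76.8, against 34.3% of all protein-coding genes), 60 in replicate 1 (74.1%, against 40.6%) and 50 in replicate 2 (61.7%, against 39.5%). In the first 1000 pooled regions it was 13 (16.0%, against 3.59%). Gene bodies enter these counts. Among the 3646 genes in the length range of the members 22.7% were marked in the pooled list and 12.7% had a summit past the 3' end. The leading summit was upstream at 30 of the 54 marked genes (55.6%), against 19.9% of all marked genes, at 26 of 60 in replicate 1 (43.3%, against 17.1%) and at 29 of 50 in replicate 2 (58%, against 19.9%). At the 24 members whose leading summit in the pooled list was in the body it lay in a coding exon at 19, in an intron at 4 and in the 3' UTR at 1. Of the 5479 such genes among all protein-coding genes it lay in a coding exon at 2570, in an intron at 2222 and in the 3' UTR at 492.

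The members differed in how far the replicates agreed. Both replicates marked 41 genes (50.6%, against 26.1%), at 36 of them with overlapping peaks (44.4%, against 18.7%), while 19 were marked in replicate 1 alone, 9 in replicate 2 alone and 12 in neither. Over the 41 genes the leading ranks had a Spearman's rho of 0.45 and a Pearson's r of 0.672 on the log2 scale, given as a description since the genes share the same 2 libraries. The 5 genes with the highest rank in replicate 1 were rpl-3, rpl-15, rpl-20, rps-20 and rps-19, and in replicate 2 they were rpl-3, rpl-20, rpl-35, rla-1 and rpl-15. All except rps-20 were in the reproducible list. That gene, for a small subunit protein, ranked 213 in replicate 1 and 5698 in replicate 2, the widest gap among these 7 genes.

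**Figure D4:**
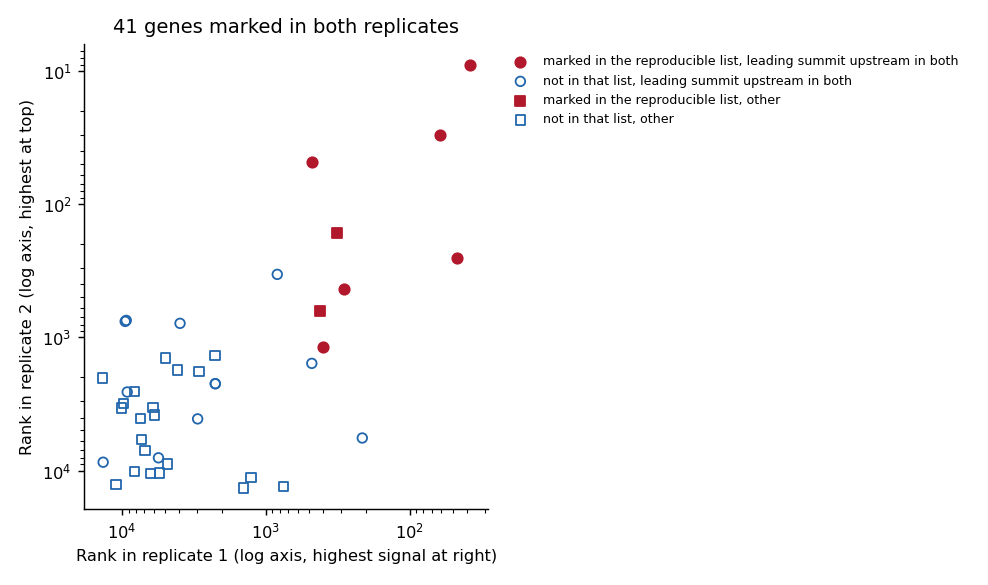
Leading rank in replicate 1 (horizontal) and replicate 2 (vertical), both on log axes with the highest signal at right and top, of the 41 ribosomal protein genes marked in both. Filled symbols are genes marked in the reproducible list and circles genes whose leading summit was upstream in both replicates; rpl-3, with ranks of 38 and 9, stands at the top right, and genes not in the reproducible list ranked no higher than 213 in replicate 1 and 336 in replicate 2.

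Just below the reproducible list, which ends at rank 440 of the nuclear pooled regions, stood rps-20 (rank 452, 238 bp upstream), rpl-24.2 (rank 459, 152 bp upstream) and rps-1 (rank 531, 261 bp upstream). Their signals of 76.6, 76.2 and 71.7 were little below the 77.8 of rpl-21, so the edge of the list divides similar values. Within the first 1000 regions followed rps-26 (rank 687, 465 bp upstream) and rpl-7A (rank 965, 85 bp upstream). The next 5 were rps-17 (rank 1228, in the 3' UTR), rpl-38 (rank 1461, 303 bp upstream), rps-11 (rank 1515, 310 bp upstream), rps-28 (rank 1727, 398 bp upstream) and rps-4 (rank 1944, 140 bp upstream). Of these 10 genes 9 had the leading summit upstream. Those of rpl-24.2 and rps-26 also lay inside another protein-coding gene, C03D6.1 and tmem-107. The median leading rank of the 54 marked members was 3306.5, and that of all marked genes 4780.

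Among genes for the stalk, rla-1 was described above, and rla-0, for the protein P0 that anchors the stalk, was marked in replicate 1 alone (rank 9739, in an intron). The third, rla-2, for the partner of P1, was marked in no list, and its summit past the 3' end ranked 673 in the pooled list. The gene for the protein at the base of the stalk, rpl-12, had a body summit of rank 1980 in the pooled list besides the reproducible one 19 bp past its end. Under the marking rule the 3 stalk genes were thus unlike each other, but each had a summit past the 3' end in at least 1 list. That of rla-0 had rank 957 in the pooled list. It lay in tct-1 and F25H2.12, 46 bp from the snoRNA gene F25H2.14. That of rla-1 was in replicate 2 alone, at rank 118. Of the members whose names differ only in the number after the point, rpl-24.1 and rpl-24.2, rpl-41.1 and rpl-41.2 were all marked in the pooled list. Whether such genes are copies of each other was not examined. Of rpl-11.1 and rpl-11.2 the first alone was marked there (rank 5388), and of rpl-25.1 and rpl-25.2 also the first (rank 4381). How reads that match more than 1 place were treated is not given in the sources used here, so the values of any near-identical genes are uncertain. The neighbours rpl-41.1 and rpl-41.2 shared a summit, 290 bp upstream of the second and past the 3' end of the first, and rps-10 and rpl-24.1 shared one of rank 2304 between their 5' ends.

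The rule left 11 members marked in no list: rpl-27, rpl-25.2, rpl-36.A, rpl-43, rps-29, rps-22, rpl-37, rpl-9, rla-2, rpl-29 and rpl-39. Of these, 9 had a summit past the 3' end in at least 1 list, from rank 362 of the pooled list at rpl-27 to rank 3870 at rpl-9. Only rpl-37 and rpl-39 had none on either flank or in the body in any of the 4 lists. Of the 81 genes, 72 had a summit in the body or on a flank in the pooled list (88.9%, against 40.0%), 74 in replicate 1 (91.4%, against 46.5%) and 72 in replicate 2 (88.9%, against 45.6%).

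Upstream summits can belong to more than one gene. Of the 6 genes with a reproducible summit upstream 4 have a divergent protein-coding gene whose 5' end lies within 500 bp of the summit: hsr-9 at 211 bp for rps-19, Y17G9B.5 at 174 bp for rpl-20, C14B9.10 at 293 bp for rpl-21 and K11H12.8 at 463 bp for rpl-15. No such gene was found for rpl-3 and rpl-35. The nearest annotated 5' end was that of the ribosomal protein gene in 3 of the 6 and that of another gene in 3. In the pooled list 16 of the 30 leading upstream summits had a divergent gene within 500 bp, and the own 5' end was the nearest for 19. Of the 30, 2 lay inside the body of another protein-coding gene. These counts were made for the members alone, so they cannot be set against the share of all protein-coding genes. A related count, added after seeing the data, took body and upstream summits together and asked that the own 5' end be nearest. In the pooled list 41 of the 54 marked members then remained, and all protein-coding genes went from 34.3% to 27.6%.

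The snoRNA genes of the members were then compared with the summits. In all 13 members hold 19 nested snoRNA genes, of 192 protein-coding genes that hold any and of 346 annotated snoRNA genes. The 13 are rpl-2, rpl-4, rpl-6, rpl-7, rpl-7A, rpl-15, rpl-24.1, rpl-26, rps-4, rps-12, rps-13, rps-23 and rps-29. A reproducible summit within 220 bp, the reach of a peak of the median width of 440 bp, was found at 68 of the 346 snoRNA genes. None of the 19 nested ones was among them. In the pooled list it was 3 of the 19 nested genes and 120 of all 346. In replicate 1 it was 4 of the 19 and in replicate 2 it was 7, and for the replicates all 346 were not counted. None of the 8 members marked in the reproducible list, and 4 of the 54 in the pooled list, had a marking summit within 220 bp of a snoRNA gene. The share over all marked genes was not counted for snoRNA genes alone, so these counts describe the members only. These 4 were rpl-4, rpl-7A, rps-13 and rps-26, in the last of which the snoRNA gene F39B2.14 lay outside the gene, 53 bp from a summit of rank 687. Marked genes were also counted without peaks within 220 bp of a tRNA, snRNA or snoRNA gene. Over all protein-coding genes 127 of 289 then remained in the reproducible list and 6636 of 6842 in the pooled list. Of the members all 8 and 52 of 54 remained.

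Members with a nested snoRNA gene were marked at 11 of 13 in the pooled list (84.6%) and those without at 43 of 68 (63.2%), and upstream summits were at 9 of 13 and 25 of 68. In replicate 1 the marked share was 76.9% with and 73.5% without, and in replicate 2 it was 84.6% and 57.4%. The genes with a nested snoRNA gene are longer, with a median of 1062 bp against 690.5 bp, and the part of length in this was not tested. The nearest reproducible summits to nested snoRNA genes were past the 3' ends of rps-4, at 403 bp from Y43B11AR.7, and of rps-13, at 463 bp from C16A3.11, and upstream of rpl-15, at 566 bp from K11H12.13. They were thus at a distance from the snoRNA genes beyond the reach of the peak.

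Other genes of translation were set beside the members. Of 70 genes for mitochondrial ribosomal proteins 36 were marked in the pooled list (51.4%) and none in the reproducible list, led by mrps-2 (rank 443). Of 43 translation factor genes 32 were marked in the pooled list (74.4%), a larger share than the 66.7% of members, where all genes had 34.3%. In replicate 2 it was 79.1%, and 61.7% of members. These genes are longer, with a median of 2204 bp. Of the translation factor genes 1 was marked in the reproducible list, eif-3.C, for a subunit of the initiation complex that binds the small subunit, 246 bp upstream at rank 370. Aminoacyl-tRNA synthetase genes were marked at 13 of 20 (65.0%), with fars-1 in the reproducible list at rank 43, where the summit lay 50 bp from the snoRNA gene T08B2.13. Of 17 ribosome biogenesis genes 10 were marked in the pooled list (58.8%), led by fib-1, for the methyltransferase fibrillarin (rank 620), and none in the reproducible list. The components outside the naming rule, ubl-1, ubq-2 and rack-1, had 1 marked of 3.

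On both flanks the cytosolic ribosomal protein genes had the largest shares among these 5 sets of 17 or more genes in the pooled list. Upstream it was 42.0%, against 21.4% of mitochondrial ribosomal protein genes, 30.2% of translation factor genes, 25% of synthetase genes and 29.4% of biogenesis genes. Past the 3' end it was 69.1%, against 31.4%, 46.5%, 35.0% and 35.3% in the same order. In the replicates the gap was at times small. Upstream the members had 39.5% and biogenesis genes 35.3% in replicate 1, and in replicate 2 the members had 43.2% and mitochondrial ribosomal protein genes 37.1%. Past the 3' end the members had 55.6% and translation factor genes 51.2% in replicate 1, and 67.9% and 37.2% in replicate 2. These differences between sets were not tested. All 5 sets stood above the 8.67% and 12.3% of all protein-coding genes, so flanking summits were not limited to the ribosomal protein genes. In the reproducible list a summit past the 3' end was found at 11 of the 81 members, 1 of the 70 mitochondrial ribosomal protein genes, 1 of the 17 biogenesis genes, 1 of the 3 components outside the naming rule and none of the translation factor or synthetase genes.

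**Figure D5:**
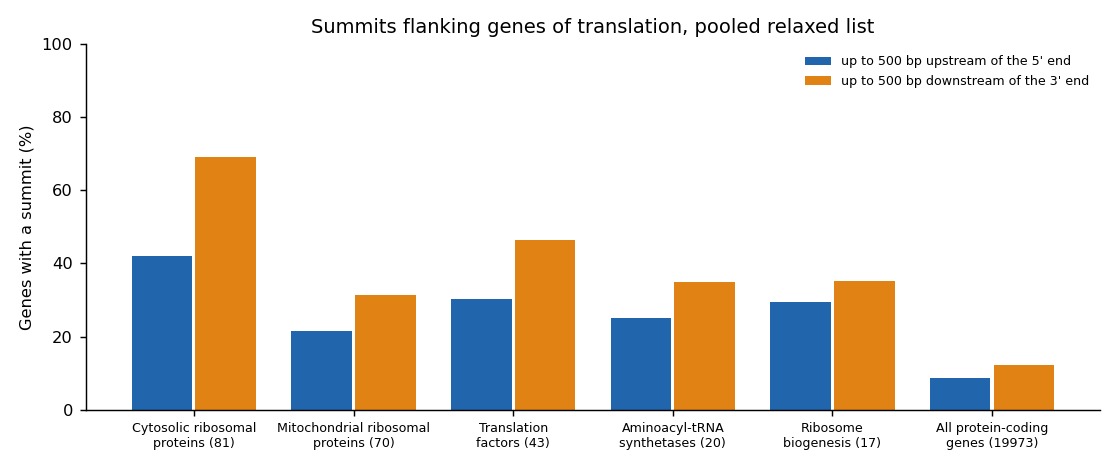
Percent of genes with a summit of the pooled relaxed list up to 500 bp upstream of the 5' end (blue) and up to 500 bp past the 3' end (orange), for the cytosolic ribosomal protein genes, 4 other sets of genes of translation and all protein-coding genes. The cytosolic ribosomal protein genes reach 42.0% and 69.1%, and all protein-coding genes 8.67% and 12.3%.

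By chromosome, the pooled list marked 19 of 25 members on I, 5 of 10 on II, 9 of 18 on III, 14 of 18 on IV, 6 of 8 on V and 1 of 2 on X, where all protein-coding genes gave 41.7%, 34.6%, 45.3%, 34.9%, 26.1% and 29.4% in the same order. Small and large subunit genes were marked at 22 of 31 (71.0%) and 31 of 47 (66.0%), a difference of a few genes. Upstream summits were at 15 of 31 small and 19 of 47 large subunit genes.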

How the data were processed

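The authors deposited peak lists from ChIP-seq of 2 biological replicates; per the labels, chromatin was sonicated. By the deposited file descriptions, relaxed lists were called for each replicate and the pool against a control, and the reproducible list was kept by irreproducible discovery rate. The aligner, the caller, their settings and the threshold were not given in the sources used here, and the control was not analysed here. The deposited signal value ranks peaks within a list. The deposited −log10 q values were read and run from q = 0.00657 to 0.0104 in the nuclear reproducible list. In the pooled list and in both replicate lists q reached 0.96. In the pooled list it was 0.0543 at rank 910 and 0.265 at rank 1727. At rank 3348, near the median leading rank of the marked members, it was 0.557. Read depth is unknown from these lists, and the number of peaks limits the precision.

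Only ce11 lists were used, and every peak ended within the WBcel235 chromosomes. Genes are from Ensembl release 115. Mitochondrial peaks were left out. Summits were assigned to windows with Python 3.11.15, numpy 2.4.6 and pandas 2.3.3, intervals are exact Clopper-Pearson at 95% from scipy 1.17.1 and cover counting error only, and figures used matplotlib 3.10.9. The assignment was tested on simulated summits at genes far from any other protein-coding gene, so the test did not cover summits at closely spaced genes. No p-value was computed, since there was 1 group.

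Members, gene sets, searched sequences and named genes were chosen with earlier results of these data known; the window past the 3' end and GGCCTAAA were added after seeing the data. The names followed a rule: members in the reproducible list or the first 1000 pooled regions, the next 5, the first 5 of each replicate, hosts of snoRNA genes, unmarked members, and leading genes of the other sets. Of 19 names for biogenesis 2 were absent from the annotation. Promoter windows were cut from the genome at Ensembl 5' ends. Sequences are printed for some of the reproducible summits at members alone, and the others are not reported here. The length range was added after seeing the data. Alternatives changed window lengths, the part of the list, overlap, the snoRNA distance and the replicates.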

Additional observations from a re-analysis of the deposited data

How the results depend on the processing

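No paired analysis was possible because the study has 1 group. The 8 marked members of the reproducible list (all genes 1.45%) became 3 with 250 bp upstream (1.24%), 2 with gene bodies only (1.01%), 15 by any overlap of the peak (2.03%), 5 in the upper part of the list (0.691%), 13 in the first 1000 pooled regions (3.59%) and 5 where the own 5' end had to be nearest (0.996%), the last added after seeing the data. The 54 of the pooled list (34.3%) became 35 with 250 bp upstream (32.0%), 31 with bodies only (29.4%) and 34 with the upstream window only (8.67%). Leading upstream summits fell to 1 of the 6 in the reproducible list and to 7 of the 30 in the pooled list with 250 bp upstream, a window that by construction leaves out most of them. Members with a marking summit near a snoRNA gene, 4 in the pooled list, were 1 within 100 bp and 9 within 500 bp. For this count no share of all marked genes was made, at any distance or by replicate. Past the 3' end, the 11 and 56 members became 2 and 14 where summits in or upstream of another gene were left out (all genes 0.421% and 3.92%), and the 56 became 36 within 250 bp; these were added after seeing the data.

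With each replicate alone, at the size of the reproducible list where that list is meant, the range was 7 to 8 marked in the reproducible list and 50 to 60 in the pooled list, 6 to 6 and 26 to 29 with the leading summit upstream, 5 to 7 near a snoRNA gene in the pooled list, and 10 to 15 and 45 to 55 past the 3' end. The 7 near a snoRNA gene is replicate 2 alone.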
